A study of Mus musculus with 6 samples.

Results

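The guanylate-binding proteins are large GTPases of the dynamin superfamily, and the data cover the 9 genes listed as Gbp2 to Gbp10 among 23420 genes in messenger RNA profiles of mouse germinal centre B cells. The 9 members were taken by symbol, and all 9 were listed. The family was selected on the KO minus WT difference of Gbp4 in these same libraries, so the differences between the groups are given below as a description and support nothing by themselves. The KO libraries came from mice with both Basp1 alleles floxed (BASP1 fl/fl), and the WT libraries from mice with no floxed allele (BASP1 +/+). Both groups carried hCD20TamCre+/-, a Cre recombinase that tamoxifen activates and that the human CD20 promoter directs to B cells. All mice were immunized with NP-KLH and received 1 mg of tamoxifen on each of days 5, 7 and 9, and spleens were taken on day 10. B cells were enriched with beads and germinal centre B cells were then sorted, giving 3 libraries for KO and 3 for WT. The labels used here do not give the age or sex of the mice, do not say whether a library came from 1 mouse or a pool, and do not say how a replicate number ties KO to WT.

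Guanylate-binding proteins are among the most strongly interferon-induced proteins of vertebrate cells. Interferon gamma binds its receptor, the kinases JAK1 and JAK2 pass the signal on, and factors such as IRF1 then act on the promoters of these genes. The proteins bind GTP, assemble into coats on pathogen-containing vacuoles and on cytosolic bacteria, and work together with the immunity-related GTPases, with the autophagy conjugation machinery and with inflammasomes. Some members carry a lipid anchor added at a C-terminal CaaX motif. In mice the genes lie in a chromosome 3 cluster and a chromosome 5 cluster.

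By position in GENCODE M21 (GRCm38, the build called mm10), 4 members lie on the plus strand of chromosome 3 and 5 on the minus strand of chromosome 5. The chromosome 3 members span 144 kb, from 142493978 to 142638008. They are Gbp5 (142493978 to 142522344), Gbp7 (142530342 to 142550149), Gbp3 (142560026 to 142573209) and Gbp2 (142620602 to 142638008). The chromosome 5 members span 280.0 kb, from 105014150 to 105293698. They are Gbp8 (105014150 to 105139540), Gbp9 (105077630 to 105139539), Gbp4 (105115767 to 105139586), Gbp10 (105215699 to 105239533) and Gbp6 (105270702 to 105293698). By these positions Gbp9 lies within Gbp8, Gbp4 overlaps both over nearly its whole length, and their upstream ends lie close together. Of exon bases, Gbp4 shares only 61 with Gbp8 and 60 with Gbp9.

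The members differ in how far their reads can be told apart, so their sequences come before their values. A stretch of 60 coding bases over the first GTP-binding motif of each member shows how close they are. It lies in exon 2 of every member, within bases 100 to 177 of the coding sequence, and is read from the GENCODE M21 transcripts. Capitals mark the 26 positions at which the 9 members do not all have the same base, and the 34 lower-case positions are shared by all.
Gbp2: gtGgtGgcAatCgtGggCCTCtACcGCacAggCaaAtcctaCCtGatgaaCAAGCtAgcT
Gbp3: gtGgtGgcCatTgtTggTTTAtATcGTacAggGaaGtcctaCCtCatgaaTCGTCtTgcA
Gbp5: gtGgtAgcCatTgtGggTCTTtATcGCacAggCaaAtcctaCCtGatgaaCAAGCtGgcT
Gbp7: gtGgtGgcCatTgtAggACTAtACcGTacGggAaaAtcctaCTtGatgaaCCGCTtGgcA
Gbp4: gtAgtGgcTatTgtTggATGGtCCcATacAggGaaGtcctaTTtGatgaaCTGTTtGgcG
Gbp6: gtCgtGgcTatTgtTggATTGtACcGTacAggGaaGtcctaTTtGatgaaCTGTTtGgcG
Gbp8: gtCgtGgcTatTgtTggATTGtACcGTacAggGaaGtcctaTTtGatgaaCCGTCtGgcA
Gbp9: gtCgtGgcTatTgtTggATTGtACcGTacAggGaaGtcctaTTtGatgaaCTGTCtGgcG
Gbp10: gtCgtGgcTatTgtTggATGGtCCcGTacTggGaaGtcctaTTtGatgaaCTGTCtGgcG
Within the chromosome 5 cluster these stretches differed at 1 to 7 of the 60 positions (1 between Gbp6 and Gbp9, 7 between Gbp4 and Gbp8). Between the clusters it was 10 to 21, with Gbp4 at 15 to 21 from the 4 chromosome 3 members. Among the chromosome 3 members, Gbp2 and Gbp5 differed at 7 positions and every other pair at 13 to 17. In this stretch Gbp3 and Gbp7 were thus closer to Gbp8, at 10 and 11 positions, than to any other chromosome 3 member.

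Over the whole coding sequence the chromosome 5 members were 89.6% to 98.4% identical to one another, and Gbp6 and Gbp10 were the closest pair (98.4% of 1836 aligned bases). The chromosome 3 members were less alike, from 61.6% between Gbp5 and Gbp7 to 78.3% between Gbp3 and Gbp7. Of the 75-base stretches of the main transcript, 86.0% for Gbp6 and 75.5% for Gbp10 also occur in a transcript of another gene. Most of that overlap is with each other and with Gm43302, a locus annotated across both of them (chromosome 5, 105214907 to 105293695). For Gbp4, Gbp8 and Gbp9 the shares were 5.35%, 7.97% and 4.32%, and for Gbp2, Gbp3 and Gbp5 0.983%, 2.68% and 0.0671%. Gbp7 had 11.4%, of which 10.2 percentage points are shared with the pseudogene Gm43802 that lies inside it. Values of Gbp6 and Gbp10 are therefore uncertain, since the counting may have split or dropped their shared reads. The sources used here do not state its settings for such reads or for strand.

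**Figure D1:**
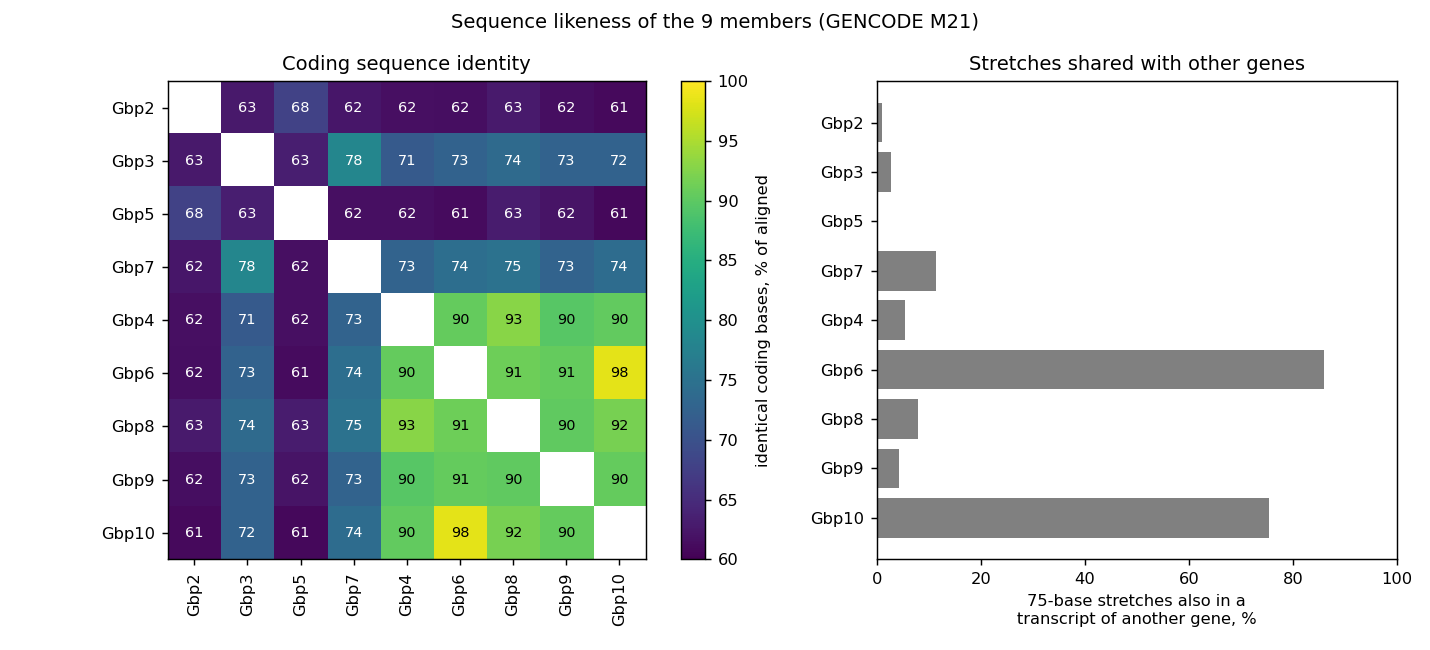
The left panel gives the percent of aligned coding bases that are identical for each pair of members, and the right panel the percent of 75-base stretches of each main transcript that also occur in another gene. The chromosome 5 members form a block at 89.6% to 98.4%, and Gbp6 and Gbp10 share 86.0% and 75.5% of their stretches with other genes.

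RefSeq promoters (GRCm38.p6, 250 bases before to 50 after the start of transcription) were at hand for Gbp2, Gbp3, Gbp5 and Gbp7, that is for 4 of the 9 members, all on chromosome 3. They are shown with letter matches to the elements through which interferon acts. Both strands were searched for the core of the interferon-stimulated response element (ISRE, the letters GAAA, NN and GAAA in a row), for the gamma-activated site (GAS, TTCNNNGAA) and for a T-box core (TCACACC). Capitals mark ISRE and GAS matches. The regions are chr3:142620413-142620712 for Gbp2, chr3:142559794-142560093 for Gbp3, chr3:142496684-142496983 for Gbp5 and chr3:142530086-142530385 for Gbp7, all on the plus strand.
Gbp2: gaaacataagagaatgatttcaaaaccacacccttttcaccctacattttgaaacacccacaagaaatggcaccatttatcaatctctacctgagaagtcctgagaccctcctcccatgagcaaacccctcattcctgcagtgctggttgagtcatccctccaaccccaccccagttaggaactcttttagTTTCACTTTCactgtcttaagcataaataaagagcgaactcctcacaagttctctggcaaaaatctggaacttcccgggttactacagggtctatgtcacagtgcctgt
Gbp3: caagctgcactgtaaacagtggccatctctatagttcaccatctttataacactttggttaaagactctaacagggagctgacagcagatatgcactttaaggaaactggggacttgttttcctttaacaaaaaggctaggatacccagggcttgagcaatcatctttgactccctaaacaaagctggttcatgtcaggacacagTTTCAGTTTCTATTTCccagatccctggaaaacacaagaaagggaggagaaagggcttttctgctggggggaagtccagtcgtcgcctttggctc
Gbp5: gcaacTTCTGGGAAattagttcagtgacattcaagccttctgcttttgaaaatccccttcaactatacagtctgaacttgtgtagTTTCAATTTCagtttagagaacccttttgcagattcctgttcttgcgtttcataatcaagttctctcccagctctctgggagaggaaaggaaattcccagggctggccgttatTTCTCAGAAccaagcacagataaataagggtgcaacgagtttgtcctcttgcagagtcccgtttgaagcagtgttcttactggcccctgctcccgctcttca
Gbp7: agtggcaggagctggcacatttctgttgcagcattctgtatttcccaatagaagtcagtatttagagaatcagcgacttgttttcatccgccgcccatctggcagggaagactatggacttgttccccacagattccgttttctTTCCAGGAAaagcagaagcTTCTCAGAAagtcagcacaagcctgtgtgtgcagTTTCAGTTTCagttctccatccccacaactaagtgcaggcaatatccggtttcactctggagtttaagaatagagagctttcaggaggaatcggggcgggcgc
All 4 promoters held an ISRE match, which 3.45% of 32544 promoters of the same length did. Counted from the start of transcription, it lay at -59 to -50 in Gbp2. Gbp3 had 2 overlapping matches, at -45 to -36 and -39 to -30, and a second annotated start of Gbp3 had no match. The match lay at -53 to -44 in Gbp7 and at -165 to -156 in Gbp5. Gbp5 and Gbp7 each had 2 GAS matches and Gbp2 and Gbp3 had none in these windows, where 8.33% of all promoters held one. No T-box core was in these 4 windows, and 3.95% of all promoters held one. At a share that low, 4 windows cannot show a lack of it, and nothing is read from this. A match is a run of letters and does not show that a factor binds there.

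The libraries listed log2 CPM values, read counts scaled to a common library size and put on a log2 scale, which summed after back-transformation to between 997617 and 1000513 CPM. The depth of single libraries is unknown. For every gene the KO and WT values of the same replicate number had the same sum to within 0.001, so the data of a gene consist of a mean and 3 paired differences, and the SD is equal in both groups by construction. A KO value above the mean therefore goes with a WT value equally far below it. The most frequent value, held by 8492 genes in all 6 libraries and called the floor here, was -5.06 log2 CPM (0.0299 CPM). Basp1 was lower in all 3 KO libraries, at 9.65, 7.27 and 9.39 CPM in KO, against 44.8, 59.5 and 46.0 CPM in WT. All 11 markers of germinal centre B cells were above 1 CPM on average, and their summed level was 7230 to 7340 CPM in KO and 7510 to 7630 CPM in WT.

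Germinal centre B cells carried transcripts of the family mostly from 3 members. The summed level of the 9 members was 106 ± 4.16 CPM in KO and 86.4 ± 2.72 CPM in WT (SD, n = 3 each). Gbp3, Gbp4 and Gbp9 made up 87.3% of that sum in KO and 88.5% in WT, a share of reads that is not scaled to length. Chromosome 5 members gave 66.2 ± 2.25 CPM in KO and 50.3 ± 1.48 CPM in WT, and chromosome 3 members 40.3 ± 2.57 CPM in KO and 36.1 ± 1.96 CPM in WT. The summed levels of the whole family and of each cluster did not overlap between the groups. For chromosome 3 this was narrow, with 38.1 CPM in KO library 1 and 37.9 CPM in WT library 1. Of single genes with more than 1 value, 12.2% were higher in KO without overlap. No such share was worked out for sums, and nothing is read from them. In sorted cells as in any bulk sample, a difference in RNA per cell and a difference in the share of cells that express a gene cannot be told apart.

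Per kb of exon, the order of the members over all 6 libraries was Gbp3 (8.94 CPM per kb), Gbp9 (6.26), Gbp4 (5.79), Gbp2 (3.48), Gbp8 (0.79), Gbp5 (0.098), Gbp7 (0.0389), Gbp6 (0.038) and Gbp10 (0.0215). Exon lengths are those of the coding transcripts in GENCODE M21, which may differ from the annotation used for counting. On the log2 scale the gap between Gbp9 and Gbp4 was 0.12, smaller than the SD of Gbp4 over all 6 libraries (0.31). That SD includes the difference between KO and WT, and within each group it was 0.14 for Gbp4 and 0.05 for Gbp9. By group, Gbp9 had 6.8 CPM per kb in KO and 5.77 in WT, and Gbp4 6.93 in KO and 4.83 in WT. Their order thus changed with the group. Gbp5 and Gbp7, Gbp7 and Gbp6, and Gbp6 and Gbp10 were also closer than their spread over all 6 libraries, at gaps of 1.33, 0.04 and 0.82. Gbp3 stood 0.51 above Gbp9, Gbp4 0.73 above Gbp2, and Gbp2 2.14 above Gbp8, all wider than the spread. The values hold no differences between replicate numbers, so the spread leaves these out.

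**Figure D2:**
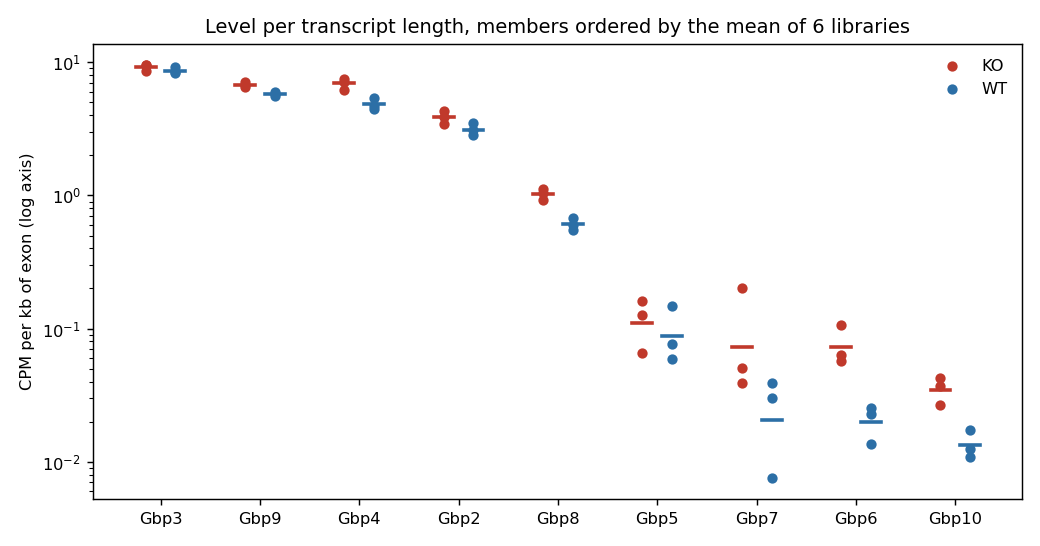
Points are the level of each member per kb of exon in single libraries, on a log axis, with KO left of WT for each gene and bars at the geometric mean of 3 libraries. The 4 members from Gbp3 to Gbp2 lie above 3 CPM per kb on average over all libraries, Gbp8 at 0.79, and the other 4 below 0.1.

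Of the 9 members, 5 had a mean of at least 1 CPM and entered the fit across 10133 genes: Gbp2 and Gbp3 of chromosome 3, and Gbp4, Gbp8 and Gbp9 of chromosome 5. Each of these 5 lay above 1 CPM in all 6 libraries, so none passed through the level of 1 group only. In that fit (limma with the replicate number as a block, Benjamini-Hochberg adjustment), 1 member, Gbp4, rose past 5% FDR, where 0.266% of tested genes were called and 0.168% were called higher in KO. Nothing is read from that count, because it belongs to the contrast on which the family was selected. All 9 members had a mean difference above 0, as 51.5% of all genes with more than 1 value did. KO and WT did not overlap in 5 of the 9, all on chromosome 5, with KO higher, against 12.2% of genes with more than 1 value. These were 3 of the 5 tested members (15.2% of tested genes) and 2 of the 4 members under 1 CPM (5.89% of such genes). None of the 4 chromosome 3 members separated the groups.

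**Figure D3:**
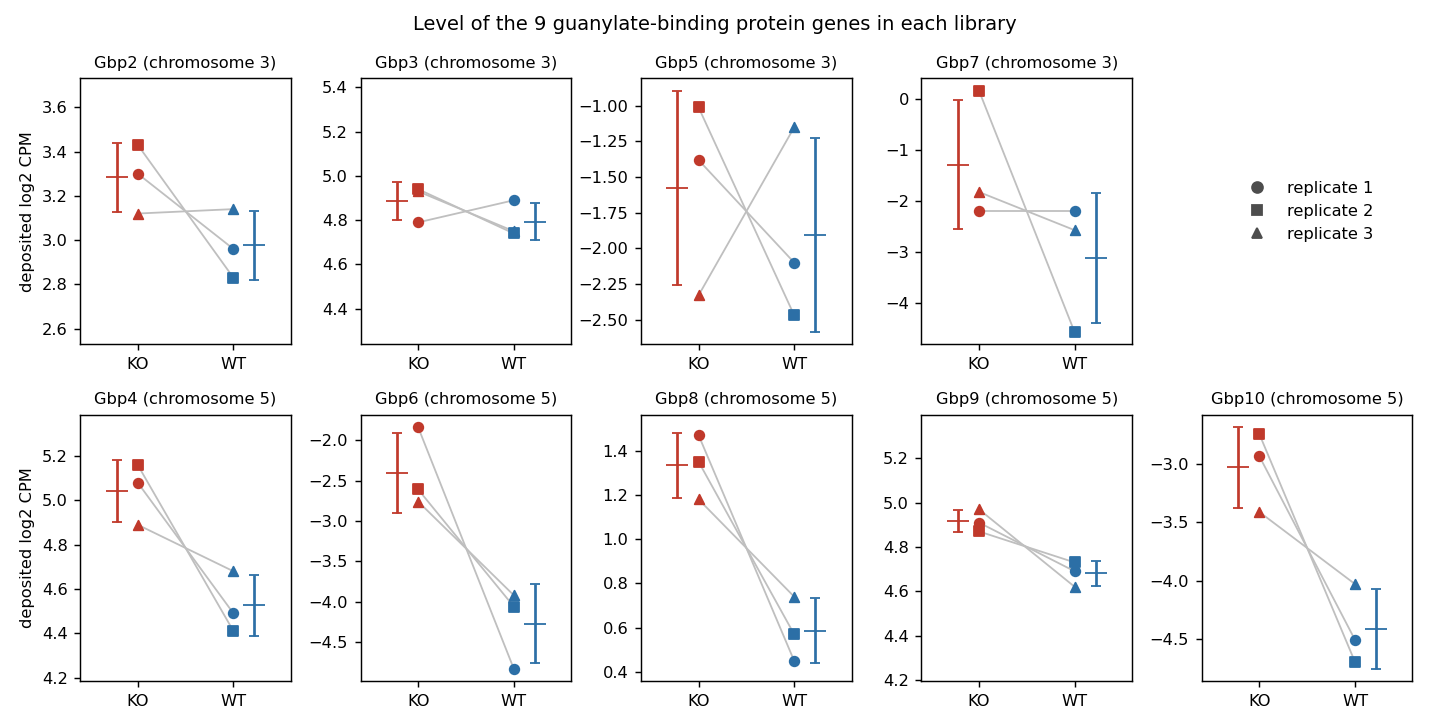
Each panel gives the deposited log2 CPM of 1 member in the 3 KO and 3 WT libraries, with grey lines joining libraries of the same replicate number and bars for the mean and SD of each group (axis ranges differ between panels). KO lies above WT in all pairs for Gbp4, Gbp6, Gbp8, Gbp9 and Gbp10, while Gbp2, Gbp3, Gbp5 and Gbp7 overlap.

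On chromosome 5, Gbp4 encodes a large GTPase of the group without a CaaX lipid anchor. Its level was 33.9, 35.8 and 29.7 CPM in KO libraries 1, 2 and 3, against 22.4, 21.2 and 25.6 CPM in WT libraries 1, 2 and 3. Every KO library was above every WT library, and the gap was narrowest for replicate 3. The log2 difference was 0.52 ± 0.28 (SD, n = 3 pairs), a fold of 1.44, with 0.60, 0.75 and 0.21 in pairs 1, 2 and 3. Gbp4 no longer passed 5% FDR without pair 1 (0.48) or without pair 2 (0.41). It also did not pass with no replicate block, no variance trend, non-robust moderation or the length and GC trend removed.

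Gbp9, a close relative of Gbp4 that is also induced by interferon gamma, was its neighbour in level per kb. It had 30.0, 29.2 and 31.4 CPM in KO, against 25.8, 26.5 and 24.6 CPM in WT. The groups did not overlap, and the difference was widest for replicate 3, where that of Gbp4 was narrowest. The log2 difference was 0.24 ± 0.11 (SD, n = 3 pairs), a fold of 1.18, and did not pass 5% FDR over all genes.

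Gbp8, a shorter member of the same cluster, had 2.77, 2.55 and 2.27 CPM in KO, against 1.36, 1.48 and 1.67 CPM in WT. KO was above WT in every library, with the widest gap for replicate 1. The log2 difference was 0.75 ± 0.29 (SD, n = 3 pairs), a fold of 1.68, and at this low level it did not pass 5% FDR. Among the 3 tested chromosome 5 members the mean difference was thus 0.24 to 0.75 on the log2 scale. Each was higher in KO in all 3 pairs, as 15.2% of tested genes were. The members share the same libraries and are not replicates of one another.

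Gbp6 and Gbp10, which in mouse macrophages are interferon-inducible and share most of their sequence, were near the floor. Gbp6 had 0.279, 0.164 and 0.148 CPM in KO, against 0.0351, 0.0599 and 0.0662 CPM in WT. Gbp10 had 0.131, 0.149 and 0.0938 CPM in KO, against 0.0438, 0.0386 and 0.0614 CPM in WT. KO was above WT in every library for both genes. Their log2 differences were 1.87 ± 0.98 and 1.38 ± 0.69 (SD, n = 3 pairs), at levels near the floor. With no filter on low values neither passed 5% FDR.

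On chromosome 3, Gbp2 encodes a member with a CaaX motif that is known to reach vacuoles of Toxoplasma in mouse cells. It had 9.83, 10.8 and 8.69 CPM in KO, against 7.78, 7.10 and 8.80 CPM in WT. KO was higher for replicates 1 and 2 and at the WT level for replicate 3. The log2 difference was 0.31 ± 0.31 (SD, n = 3 pairs), no larger than its SD, and did not pass 5% FDR. It was 0.16 without pair 2 and 0.47 without pair 3.

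Gbp3, the most abundant member per kb, had 27.6, 30.7 and 30.4 CPM in KO, against 29.6, 26.6 and 26.9 CPM in WT. The groups overlapped, with KO lower for replicate 1. Its log2 difference was 0.09 ± 0.17 (SD, n = 3 pairs), a fold of 1.07, and did not pass 5% FDR. Leaving out pair 1 gave 0.19, pair 2 gave 0.04 and pair 3 gave 0.05.

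Gbp5, which promotes inflammasome assembly in macrophages, had 0.384, 0.495 and 0.199 CPM in KO, against 0.233, 0.181 and 0.45 CPM in WT. Its groups overlapped and replicate 3 went the other way (log2 difference 0.33 ± 1.36, SD, n = 3 pairs). Gbp7, reported to act on vacuoles in mouse cells, had 0.218, 1.13 and 0.283 CPM in KO, against 0.218, 0.0422 and 0.169 CPM in WT. KO and WT had the same value for replicate 1, and replicate 2 alone gave a difference of 4.74 on the log2 scale. Its mean of 1.83 ± 2.55 (SD, n = 3 pairs) therefore rests on that pair.

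**Figure D4:**
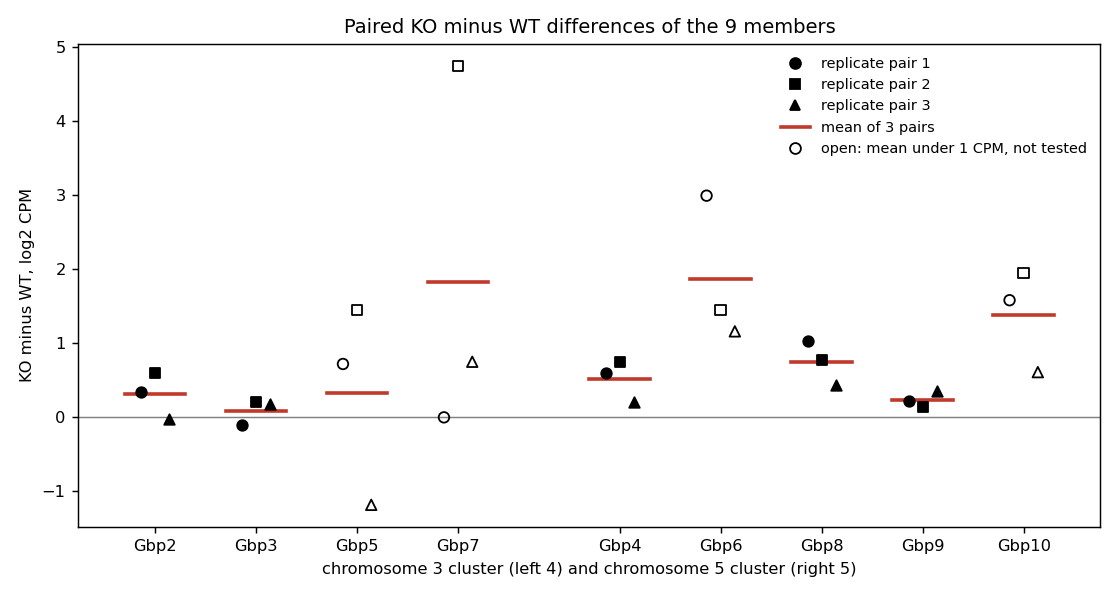
Points are the KO minus WT difference of each replicate pair on the log2 CPM scale, open for members with a mean under 1 CPM, and red bars are the mean of 3 pairs. Each of the 5 chromosome 5 members lies above 0 in all 3 pairs, as 12.2% of genes with more than 1 value do. Gbp2, Gbp3 and Gbp5 each have a point below 0. The members share the same 3 pairs.

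By cluster, the median log2 difference of the 3 tested chromosome 5 members was 0.60, 0.75 and 0.35 in pairs 1, 2 and 3, and that of the 2 tested chromosome 3 members 0.12, 0.40 and 0.08. The median over all tested genes was 0.00, 0.01 and 0.00 in the same pairs. The chromosome 3 median was lower than the chromosome 5 median by a log2 difference of -0.48, -0.35 and -0.27 in pairs 1, 2 and 3. No test was made of it, since members were chosen with the contrast known and 3 pairs cannot give a two-sided exact sign-flip p below 0.25. Over all 9 members, low ones included, the difference of the cluster medians was -0.86, 0.25 and -0.36 in pairs 1, 2 and 3, so that pair 2 went the other way. With Gbp8 left out by a limit of 4 CPM, the difference of the cluster medians of the mean differences was -0.18, against -0.32 with it.

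The size of the differences also moved with the replicate number. The difference was smallest in pair 3 for 6 of the 9 members, and for 3 of the 5 tested ones, while among all tested genes 35.3% had their smallest difference there. The exceptions among the tested members were Gbp9, smallest in pair 2, and Gbp3, smallest in pair 1. In pair 2 the summed level of 7 nuclear and non-coding RNAs, a sign of RNA quality, had a KO over WT log2 ratio of -0.96, against -0.27 in pair 1 and 0.35 in pair 3. Malat1 alone had 255 to 447 CPM in KO and 345 to 605 CPM in WT. The other 6 of these RNAs summed to 138 to 162 CPM in KO and 134 to 158 CPM in WT. Erythroid and platelet markers had 1.51 in pair 2, 0.64 in pair 1 and 0.05 in pair 3. Their sums were low, at 2.02 to 3.53 CPM in KO and 1.2 to 2.27 CPM in WT, and 0 of them entered the fit. The part of these RNAs and markers in the results was not tested. Without pair 2 the median difference was 0.41 for tested chromosome 5 members and 0.10 for tested chromosome 3 members.

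Markers of other cell types were read beside the family. Of T cell, NK cell, neutrophil, and erythroid and platelet markers, 0 reached the level for testing. Tested were 2 macrophage and monocyte, 1 dendritic cell, 2 plasma cell, and 7 naive and follicular B cell markers. None of those tested passed 5% FDR, and the others, being under 1 CPM or not listed, could not. The summed level of 8 T cell markers was 0.994 to 1.34 CPM in KO and 1.04 to 1.33 CPM in WT, with Cd3e at the floor in all libraries. That of 6 NK cell markers was 1.37 to 1.70 CPM in KO and 1.08 to 1.18 CPM in WT, with Klrd1 at the floor in all libraries. Of 10 macrophage and monocyte markers 9 were listed, at 8.72 to 12.7 CPM in KO and 10.5 to 15.5 CPM in WT. The 6 dendritic cell markers summed to 87.0 to 96.3 CPM in KO and 95.7 to 106 CPM in WT, near the family's own sum. Of this Flt3 alone had 85.5 to 95.2 CPM in KO and 94.5 to 105 CPM in WT, and Clec9a was at the floor in all libraries. The other 5 summed to 1.13 to 1.51 CPM in KO and 0.788 to 1.12 CPM in WT. The sums of NK markers and of these 5 were thus higher in KO without overlap of the groups. So was the sum of 3 plasma cell markers other than Xbp1, at 2.97 to 3.77 CPM in KO and 1.62 to 2.01 CPM in WT. The 6 naive and follicular B cell markers other than Fcer2a did not overlap either. They summed to 223 to 235 CPM in KO and 198 to 211 CPM in WT. With Flt3, Xbp1 and Fcer2a included, the dendritic cell, plasma cell, and naive and follicular B cell sums overlapped between the groups. These genes were set apart after their values were seen. The germinal centre B cell sum did not overlap either and was lower in KO (7230 to 7340 CPM, against 7510 to 7630 CPM in WT). Of single genes with more than 1 value, 12.2% were higher in KO without overlap. No such share was worked out for sums, and nothing is read from them. The part of any of these markers in the family's values was not tested.

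Outside the rule, the files list Gbp1, an older symbol of Gbp2b on chromosome 3 (142594847 to 142619179), and Gbp11, annotated as a polymorphic pseudogene on chromosome 5. Gbp1 had 0.568, 0.528 and 0.334 CPM in KO, against 0.151, 0.163 and 0.257 CPM in WT, without overlap of the groups (log2 difference 1.33 ± 0.83, SD, n = 3 pairs). Being under 1 CPM it was not tested. It is the chromosome 3 gene of the family that did separate the groups, with KO higher. Of genes under 1 CPM with more than 1 value, 5.89% did so. Gbp11 was at the floor in all 6 libraries.

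The inducing pathway, the partners of the family and other response genes were read from 7 lists of 98 genes, of which 75 were tested. In limma 5 rose past 5% FDR and 0 were called lower, where 0.266% of all tested genes were called and 0.168% were called higher in KO. Nothing is read from that count, because the lists were chosen with earlier results of these data known. The 5 became 3 without pair 1, 2 without pair 2 and 8 without pair 3. In the list of the interferon gamma receptor and its signalling, 0 of 15 tested genes passed in limma in either direction, with a median of 0.01. At an unadjusted p under 0.05 there were 6 of them, where 8.82% of all tested genes were. Ifng, the ligand gene, was at the floor in all 6 libraries. The receptor chain Ifngr1 differed by -0.01 ± 0.08 and Ifngr2 by 0.23 ± 0.37 (SD, n = 3 pairs). The kinase Jak1 differed by -0.07 ± 0.10 and Jak2 by -0.38 ± 0.48.

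Irf1, an interferon-induced factor that binds ISRE sequences, was 39.2 CPM in KO and 29.6 CPM in WT. Its log2 difference of 0.40 ± 0.13 was positive in all 3 pairs and did not pass the threshold (adjusted p = 0.0515 in limma). Irf8, a further factor of B cells that acts on such elements, differed by -0.01 ± 0.15, and Socs1, which restrains the pathway, by 0.22 ± 0.34.

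Of the immunity-related GTPases, the partners of the family on vacuoles, 13 were listed, 6 were tested and 2 rose, with a median of 0.38. The mean difference was positive in 5 of the 6. In limma 5 of the 6 had an unadjusted p under 0.05, counted in either direction, where 8.82% of all tested genes did. These are not the same 5: they include 9930111J21Rik1, which was lower in KO, and leave out Igtp. Ifi47 had 70.3 CPM in KO and 51.6 CPM in WT, a log2 difference of 0.44 ± 0.34. Tgtp2, which has a near-identical neighbour in Tgtp1, had 2.95 CPM in KO and 1.23 CPM in WT (1.26 ± 0.41). Irgm1, Irgm2 and Igtp, the members that regulate the others, differed by 0.42 ± 0.46, 0.33 ± 0.32 and 0.24 ± 0.22 without passing. The tested gene 9930111J21Rik1 went the other way, at -0.64 ± 0.81, and did not pass. Its differences were -0.89, -1.3 and 0.26 in pairs 1, 2 and 3. Iigp1 lay under 1 CPM and was not tested. Of the 6 tested, 5 had their smallest difference in pair 3.

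No gene of the machinery that the proteins use passed in limma. In the list of autophagy conjugation this was 0 of 14 tested genes (median 0.03, 2 at an unadjusted p under 0.05), with Atg5 at 0.07 ± 0.18, Atg7 at 0.17 ± 0.10 and Atg16l1 at -0.02 ± 0.22. Among genes of CaaX prenylation and processing 0 of 8 passed (median 0.01, 0 at an unadjusted p under 0.05), with the transferase subunits Fnta at 0.00 ± 0.06, Fntb at 0.04 ± 0.15 and Pggt1b at 0.06 ± 0.16. Of inflammasome and pyroptosis genes 0 of 7 tested passed (median 0.11, 1 at an unadjusted p under 0.05). Gsdmd, the pore-forming gasdermin, differed by 0.32 ± 0.13, the caspase genes Casp1 and Casp4 by -0.02 ± 0.38 and 0.18 ± 0.38, and the DNA sensor Aim2 by 0.05 ± 0.20. Of 10 other large GTPases 4 were tested, Atl2, Atl3, Dnm2 and Dnm1l, and 0 passed (median 0.01, 0 at an unadjusted p under 0.05). Of all tested genes 8.82% had an unadjusted p under 0.05.

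Among 21 tested other genes of the interferon gamma response, 3 rose: Tbx21, Cxcr3 and Serpina3g. Their log2 differences were 1.59 ± 0.41, 1.31 ± 0.20 and 0.67 ± 0.37 (SD, n = 3 pairs). The median of the list was 0.07, and 6 of the 21 had an unadjusted p under 0.05 in either direction, where 8.82% of all tested genes did. Ciita, the master regulator of MHC class II genes, differed by -0.17 ± 0.17, and Nlrc5, its counterpart for class I, by 0.37 ± 0.21, and neither passed.

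**Figure D5:**
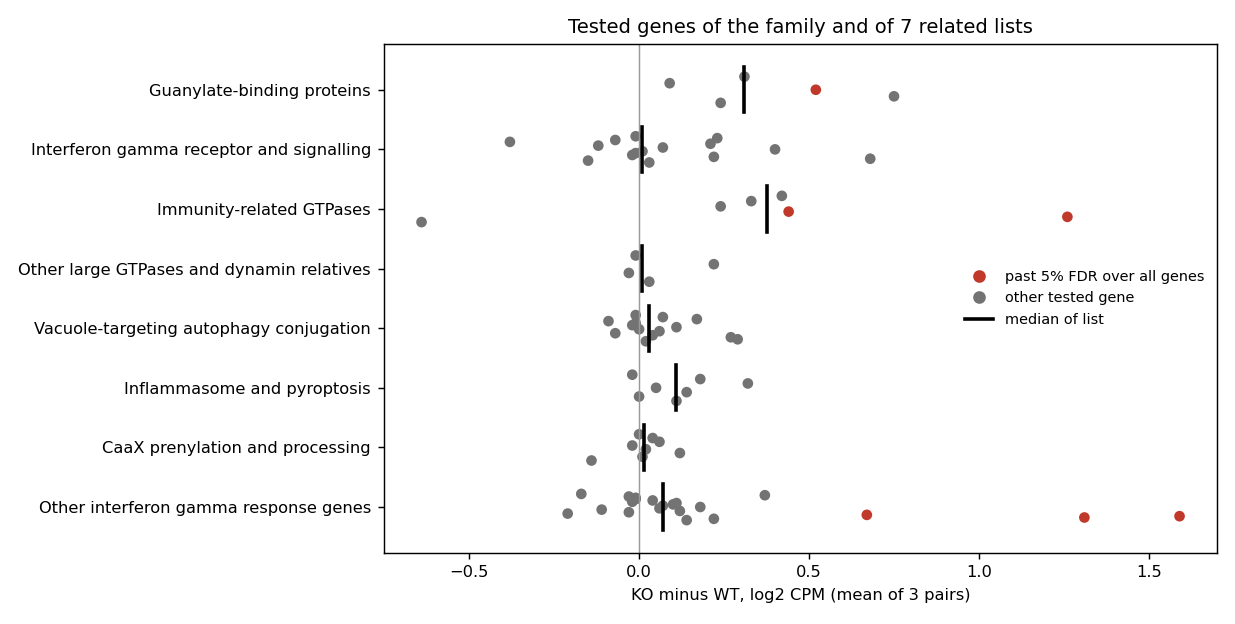
Points are the mean KO minus WT log2 difference of each tested gene in the family and in 7 related lists, red where the gene passed 5% FDR over all genes, and black bars are medians. The medians are 0.31 for the family and 0.38 for the immunity-related GTPases, and 0.01 to 0.11 for the other 6 lists.

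Genes with a pattern like that of Gbp4 were sought among 9490 tested genes of at least 2 CPM outside the family, by the root mean square distance of their 3 paired differences. The nearest were Scrn2 (distance 0.046 on the log2 scale), Irf4 (0.075), Kif1b (0.085), Phf16 (0.092) and Epb4.1l5 (0.10). Irf4, a transcription factor of activated B cells and plasma cells, had differences of 0.70, 0.68 and 0.24 in pairs 1, 2 and 3, beside 0.60, 0.75 and 0.21 for Gbp4. For the median of the tested members (0.34, 0.60 and 0.21 in pairs 1, 2 and 3) the nearest were Tmem2 (0.034), D4Wsu53e (0.052), Luzp1 (0.070), Clec11a (0.077) and Dhcr7 (0.077). The likeness rests on 3 values per gene, which share libraries.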

How the data were processed

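Messenger RNA of 3 KO and 3 WT libraries was measured with an Illumina TruSeq mRNA kit, per the labels' protocols. The submitters' processing notes name build mm10 and, without order or settings, limma, featureCounts, Subread 2.0.1, STAR 2.6.1a, Trim Galore 0.6.5 and FastQC 0.11.7. The authors deposited log2 CPM; their scaling was read from the values, which have nearly the same distribution in all libraries and no difference between replicate numbers. Such steps can change the spread between libraries. The depth of each library, and so the counting error, is unknown.

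Differences between KO and WT were fitted with limma 3.58.1 and R 4.3.3 (genotype and replicate number, variance trend over level, robust moderation, two-sided) on the 10133 genes that had more than 1 value and averaged 1 CPM or more, with Benjamini-Hochberg adjustment at 5% FDR. The number was kept as a block because the values already lack its effect, so that a fit without it counts degrees of freedom that are used up; whether the numbers pair the samples cannot be checked from such values. Each gene has 2 residual degrees of freedom, to which moderation adds 81.2 at the median. The fit was also run on simulated data. Their spread was drawn around a trend over level, as the fit assumes, so that run supports no result. The variance behind a p-value thus comes, for most genes, mainly from genes of like level and little from the gene's own 3 pairs. The labels do not say that libraries came from separate mice, so p-values refer only to these libraries. Differences are KO minus WT in log2 CPM, with the SD over 3 pairs; CPM of a group are geometric means unless given as a sum.

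The members and lists were chosen with earlier results of these data known. Genes were named by rule: the members and other listed Gbp symbols, fixed pathway genes and any list gene past 5% FDR. The rule also took Basp1 and the 5 genes nearest to Gbp4 and to the family's median. Flt3, Clec9a, Cd3e, Klrd1, Xbp1, Fcer2a, Malat1, 9930111J21Rik1 and the 4 tested other large GTPases were added after their values were seen. Alternatives changed the block, trend, moderation, filter, pseudocount, centring and pairs used, and one added after seeing the data removed a trend over exon length and GC content. A result on 1 gene of the pathway lists is not reported here.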

Additional observations from a re-analysis of the deposited data

How the results depend on the processing

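The mean difference of each tested member kept its sign under every alternative in which it was fitted. The call of Gbp4 did not: 0 members passed 5% FDR without the replicate block, without the variance trend, with non-robust moderation and with the length and GC trend removed, where the log2 difference of Gbp4 was 0.52, 0.52, 0.52 and 0.51. At an unadjusted p under 0.05 in limma there were 4, 3, 3 and 3 of the 5 members, against 3 in the fit as reported, where 8.82% of all tested genes were under it (6.32% without the variance trend). The cause was not tested. Gbp4 passed with the other limits on level, the pseudocount of 1 CPM and pairs centred on the median gene. Leaving out replicate 1, 2 or 3 gave 0, 0 and 1 members (1, 3 and 3 at an unadjusted p under 0.05) and differences of 0.41 to 0.68 for Gbp4.

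Over all genes 27 were called, 142 with no replicate block, 0 without the variance trend, 12 with non-robust moderation, 95 with no filter on low values and 3 with the length and GC trend removed, and 11 to 136 when 1 replicate number was left out. Without the variance trend 640 genes had an unadjusted p under 0.05. The family median of 0.31 became 0.52 with no filter, where all 9 members enter, and the chromosome 5 median became 0.75. Leaving out 1 replicate number gave 0.29 to 0.47 for the family median, with 0.47 without replicate 3, and 0.10 to 0.26 for the chromosome 3 median of 0.20, with 0.10 without replicate 2. The chromosome 3 minus chromosome 5 difference of -0.32 became -0.43 with no filter and -0.18 with a mean of at least 4 CPM. The 5 genes called in the pathway lists became 0 without the variance trend, 2 with non-robust moderation, 2 with the length and GC trend removed, and 2 to 8 when 1 replicate number was left out. Low level limits Gbp5, Gbp6, Gbp7 and Gbp10, and the depth behind them is unknown.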
